A study of Mus musculus with 4 samples.

Results

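The genes described here are those of the major histocompatibility complex (MHC) and of antigen presentation, in mammary tissue of mice with and without miR-21. They were chosen by name from the deposited expression table: every gene whose symbol starts with H2-, the prefix of the mouse MHC, and the genes *B2m*, *Tap1*, *Tap2*, *Tapbp*, *Cd74*, *Ciita*, *Nlrc5* and *Cd1d1*. The rule found 49 of the 22479 gene names in the table. Because some overlapping genes share a row, the 49 names stood on 45 rows, called loci here, of which 9 merged several gene names and 40 lay on chromosome 17. The study sequenced poly(A) RNA from whole mammary glands of 2 miR-21+/+ mice (WT) and 2 miR-21-/- mice (KO), which lack miR-21 in all cells. The labels give all 4 mice as 2 months old and of the mixed 129SV::FVB/N::C57BL/6 background, and the study describes the glands as virgin tissue. The labels state no other allele or treatment, and the H2 haplotype of the mice is not given in the sources used here.

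The table gives for each genotype only a combined FPKM, a fragment count corrected for transcript length and sequencing depth. Differences between the 2 mice of a genotype cannot be seen in it, so the comparisons below were made without a replicate check or a test. The table's own test columns were not used, and the depth of the libraries is unknown. A difference is given as the log2 ratio of the KO to the WT value, negative where KO was lower, and a locus was counted in the summaries when the mean of its values in both genotypes was at least 1 FPKM. Of the 45 loci, 34 reached this mean and 11 did not, and 3 of the 34 were at 1 FPKM or more in WT only. For comparison, 13636 gene names of the whole table reached the same mean, with a median log2 ratio of −0.03. Among the 6823 gene names with a mean of at least 10 FPKM, the 5th and 95th percentiles were −0.51 and 0.42, which describes the general scatter between the 2 columns. The targeted locus is listed in the table as a merged row of *Mir21* and *Vmp1*, at 42.5 FPKM in WT and 68.2 FPKM in KO glands, and poly(A) RNA of the host gene does not check the loss of the mature miRNA.

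MHC class I molecules sit on almost all nucleated cells. A heavy chain, encoded by *H2-K1*, *H2-D1* or the less variable H2-Q, H2-T and H2-M genes, pairs with the light chain *B2m* and displays peptides from inside the cell that the transporter *Tap1*/*Tap2* carries into the endoplasmic reticulum. MHC class II molecules are pairs of an alpha and a beta chain (*H2-Aa* with *H2-Ab1*, and an E chain pair), are made mainly by B cells, dendritic cells and macrophages, and are escorted by the invariant chain *Cd74* until H2-DM loads them with peptide, a step that H2-O restrains. The transactivator *Nlrc5* drives class I genes and *Ciita* drives class II genes, and both act through a shared promoter module of X and Y boxes.

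The Y box, which binds the factor NF-Y, is shown for the genes on which the class comparison turns, because the same letters stand in class I and class II promoters in opposite directions. The sequences are from RefSeq promoters of build GRCm38.p6 (250 bases before to 50 bases after each annotated start), which were found for 33 of the 49 names. Each line below is 30 bases of the gene's own strand, 5′ to 3′, with the match to CTGATTGG, or to its reverse complement CCAATCAG, in capitals. For *H2-Ob* only the shorter core GATTGG matched, and it is the part in capitals there.
H2-K1 (class I, chr17:34000321-34000350, minus strand): atcaccaagaaCCAATCAGtgtcgccgcgg
H2-D1 (class I, chr17:35263030-35263059, plus strand): gattccaggagCCAATCAGcgtcgccgcgg
H2-Q7 (class I, chr17:35439128-35439157, plus strand): attacccggaaCCAATCAGcgtcggcgcgg
H2-T23 (class I, chr17:36032735-36032764, minus strand): ttttctaaaagCCAATCAGcgacgcagagg
H2-Aa (class II, chr17:34287856-34287885, minus strand): aagagaattttCTGATTGGttctggcgagt
H2-Eb1 (class II, chr17:34305794-34305823, plus strand): ctcctttgatgCTGATTGGctcccagcact
H2-Oa (class II, chr17:34092322-34092351, plus strand): agagaactgctCTGATTGGctgcttaccgc
H2-Ob (class II, chr17:34238835-34238864, plus strand): gtcttcgctcttGATTGGttaacagtgtga

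On either strand, CTGATTGG was present in the promoters of 13 of the 21 class I genes and 4 of the 8 class II genes that had a promoter in the table, against 4.1% of all 32851 promoters. The core GATTGG, which lies within it, was present in 15 of the 21 and in all 8 class II genes, against 16.1% of all promoters. In all 15 class I genes a core match was in the reverse direction, with a second, forward match in *H2-T22*, and in all 8 class II genes a match was in the forward direction, with a second, reverse match in *H2-Eb1*. An X box pattern (CC, G, AC and ATG in this order, each separated from the next by 2 free bases, on either strand) was found in *H2-D1*, *H2-M3*, *H2-Q6* and *H2-Q7* of class I and in *H2-DMb1* and *H2-Ob* of class II, against 0.749% of all promoters. It is shown for 1 gene of each class.
H2-D1 (class I, chr17:35262973-35263002, plus strand, X box in capitals): tccttctgCCGGGACACTGATGacgcgctg
H2-Ob (class II, chr17:34238806-34238835, plus strand, X box in capitals): gtgttctgCCTAGCAACAAATGatgcaaag

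The match is a description of the letters and was not tested for binding. *H2-Oa* and *H2-Ob* carried the same forward Y box core as *H2-Aa* and *H2-Eb1*. A link between these letters and the genotype ratios given below was not tested.

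The class I heavy chain loci above the minimum were lower in KO glands throughout, by amounts mostly inside the general scatter given above. All 17 class I loci with a mean of at least 1 FPKM were lower in KO, where 55.6% of all gene names were lower, and their median log2 ratio was −0.42. *H2-K1*, a classical heavy chain, was at 523 FPKM in WT and 392 FPKM in KO, a log2 ratio of −0.42. *H2-D1*, the other classical heavy chain, merged in the table with *LOC547349*, was at 584 FPKM in WT and 453 FPKM in KO, a log2 ratio of −0.37. These were the most abundant class I loci, and together they made up 69.2% of the summed class I FPKM in WT and 69.7% in KO.

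The 6 Q loci ranged from −0.64 to −0.31. *H2-Q7*, merged with *H2-Gs10*, was the most abundant of them at 138 FPKM in WT and 103 FPKM in KO (−0.42), and *H2-Q8* had the lowest ratio, with 33.9 FPKM in WT and 21.8 FPKM in KO. *H2-Q6* was at 43.8 FPKM in WT and 28.8 FPKM in KO, a log2 ratio of −0.60. *H2-Q10*, known in other tissues as a secreted class I molecule of the liver, was at 55.4 and 40.0 FPKM (−0.47). *H2-Q1* was at 15.9 and 12.0 FPKM and *H2-Q2* at 8.61 and 6.95 FPKM. The Q genes thus kept a similar share of the class I sum, 18.5% in WT and 17.5% in KO.

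The 5 loci of the T genes and *H2-Bl* above the minimum ranged from −0.86 to −0.22. *H2-T23*, which encodes Qa-1, a ligand of inhibitory receptors of natural killer cells, was at 76.2 FPKM in WT and 65.3 FPKM in KO (−0.22), the smallest difference among the 17 class I loci. *H2-T24* was at 23.1 and 12.8 FPKM (−0.86), and a second, weaker row of the same name had a log2 ratio of −0.82. *H2-T22* merged with *H2-T9* was at 45.1 and 36.8 FPKM, and *H2-T10* at 19.4 and 15.5 FPKM. *H2-Bl* stood at 7.57 and 5.69 FPKM (−0.41). Of the M genes, *H2-M3*, which presents formylated peptides, was at 5.74 and 4.19 FPKM (−0.45), and *H2-M1* merged with *H2-M9* at 3.35 and 2.41 FPKM (−0.47). *H2-M2* had the lowest ratio of class I, with 3.06 FPKM in WT and 0.767 FPKM in KO, a KO level of 0.251 times that of WT. On the log2(FPKM + 1) scale its difference was −1.20. *H2-K2* was at 12.5 and 9.77 FPKM (−0.35).

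The class I genes resemble each other closely, so reads may have been shared between them. In the GENCODE annotation of mm9, the coding sequences of *H2-K1* and *H2-D1* were 90.5% identical over 1090 aligned bases, those of *H2-Q6* and *H2-Q7* 94.5% and those of *H2-T10* and *H2-T22* 96.4%. Their separate values are uncertain for this reason. The class I sum, which depends less on how reads were split among the members, was 1600 FPKM in WT and 1211 FPKM in KO, a log2 ratio of −0.40.

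**Figure D1:**
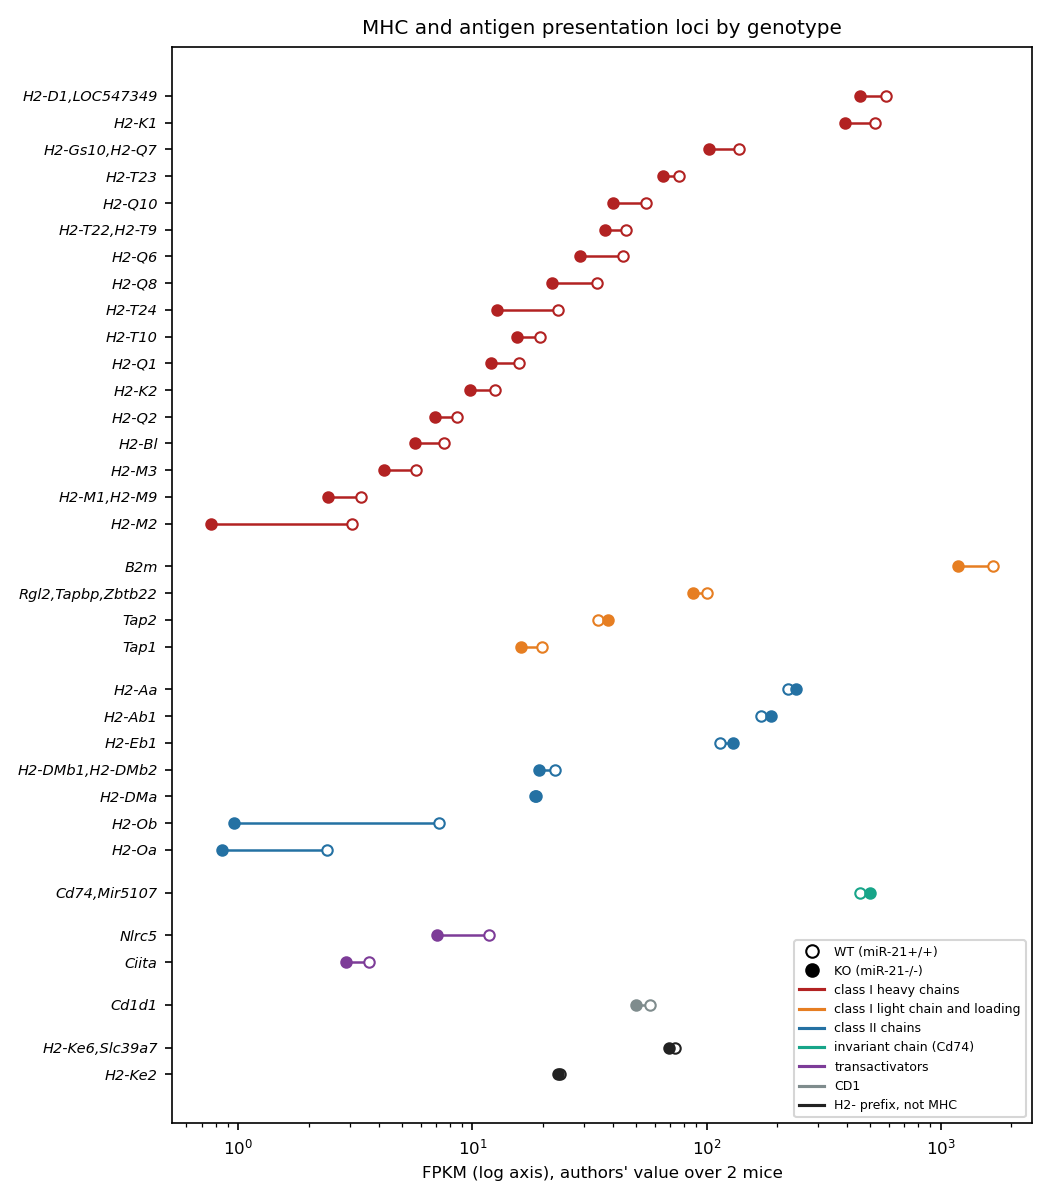
FPKM on a log axis for the 34 loci with a mean of at least 1 FPKM, with WT as open and KO as filled points, 1 row per locus and each point the authors' value over 2 mice, without an error. Every class I heavy chain point of KO lies to the left of WT, whereas KO lies to the right for H2-Aa, H2-Ab1, H2-Eb1, Cd74 and Tap2.

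*B2m*, the light chain shared by all class I molecules and located on chromosome 2 (121945844 to 122011925 in mm9), was the most abundant member at 1672.5 FPKM in WT and 1188.5 FPKM in KO. Its log2 ratio of −0.49 was close to that of the heavy chains, so that *B2m* per summed class I FPKM was 1.05 in WT and 0.981 in KO. The peptide transporter subunits had ratios of opposite sign, both inside the general scatter given above. *Tap1* was at 19.9 FPKM in WT and 16.2 FPKM in KO (−0.30), while *Tap2* was at 34.4 and 37.8 FPKM (0.13), and the ratio of *Tap2* to *Tap1* was 1.73 in WT and 2.34 in KO. *Tapbp*, the tapasin gene, which holds the heavy chain at the transporter, stood on a row merged with *Rgl2* and *Zbtb22* at 101 and 87.4 FPKM (−0.20), a value that does not belong to tapasin alone. *Cd1d1*, which presents lipids and also pairs with *B2m*, was at 57.2 and 50.1 FPKM (−0.19).

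The class II genes split into a pair of patterns. The chains of the peptide-presenting molecules were slightly higher in KO glands. *H2-Aa* was at 223 FPKM in WT and 241 FPKM in KO (0.11), *H2-Ab1* at 171 and 188 FPKM (0.14) and *H2-Eb1* at 114 and 130 FPKM (0.18). *Cd74*, merged with *Mir5107* on chromosome 18, was at 451 and 498 FPKM (0.14). All 4 ratios lay inside the scatter of abundant genes, since the 5th and 95th percentiles of the 597 gene names with a mean of at least 100 FPKM were −0.77 and 0.54. The lower ratios of *H2-K1*, *H2-D1*, the merged *H2-Q7* row and *B2m*, which also reached this mean, lay inside the same range. The ratio of *H2-Aa* to *H2-Ab1*, the partners of a dimer, was 1.31 in WT and 1.28 in KO, and that of *Cd74* to *H2-Aa* was 2.02 and 2.06. *H2-Ea-ps*, the E alpha pseudogene of the reference strain, was at 0.0276 FPKM in WT and 0.0327 FPKM in KO, so almost no RNA of the partner of *H2-Eb1* was listed.

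Of the loading factors, *H2-DMa* was at 18.8 FPKM in WT and 18.5 FPKM in KO (−0.02), and *H2-DMb1* merged with *H2-DMb2* was at 22.5 and 19.3 FPKM (−0.22). Their antagonist H2-O behaved differently. *H2-Ob*, its beta chain (chromosome 17, 34375837 to 34383428 in mm9), was at 7.19 FPKM in WT and 0.959 FPKM in KO (−2.91), the lowest ratio among the 34 loci, and *H2-Oa*, its alpha chain, was at 2.40 and 0.855 FPKM (−1.49). *H2-Ob* per *H2-DMa* was 0.384 in WT and 0.0519 in KO. *H2-Eb2*, an E beta-like gene below the minimum, was at 0.980 FPKM in WT and 0.119 FPKM in KO. *H2-Oa*, *H2-Ob* and *H2-Eb2* were set apart after their values were seen. On the log2(FPKM + 1) scale the ratio of *H2-Ob* was −2.06 and that of *H2-Oa* −0.87. H2-O is known to be expressed mainly in B cells and some dendritic cells.

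Compared as classes, the 17 class I loci had a median of −0.42 and the 7 class II loci a median of −0.02, a difference of 0.40. Without *H2-Oa* and *H2-Ob* the class II median was 0.11. With all 7 class II loci the ranges of the classes overlapped, since *H2-Oa* lay inside the class I range and *H2-Ob* below it. The highest class I value, for *H2-T23*, and the lowest other class II value, for the merged *H2-DMb1* row, were both −0.22. Because *H2-Oa* and *H2-Ob* were set apart after their values were seen, no separation of the classes is drawn from the values without them. In summed FPKM, *H2-K1* and *H2-D1* exceeded *H2-Aa*, *H2-Ab1* and *H2-Eb1* by a ratio of 2.18 in WT and 1.51 in KO. Neither comparison could be tested, because genes of a single pair of columns are not replicates. The difference between the classes does not depend on the scale of the columns, but the sign of class II does. When both columns were scaled to equal sums over all loci, which adds −0.63 to every log2 ratio, class I had a median of −1.05 and class II of −0.65. *H2-Aa*, *H2-Ab1*, *H2-Eb1*, *Cd74* and *Tap2* were then also lower in KO. Loci without a gene name and with a mean of at least 1 FPKM summed to 375273 in WT and 816946 in KO. Named loci summed to 380567 and 355385. Scaled to equal sums over named loci, class I had a median of −0.32 and class II of 0.08. Centred on the median of named genes, they had −0.39 and 0.005.

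**Figure D2:**
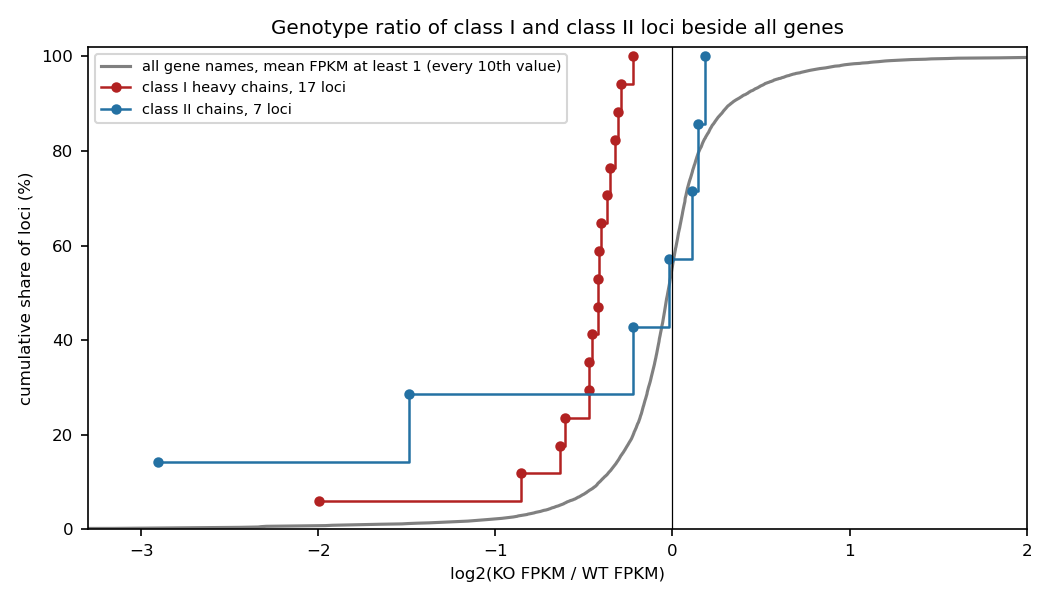
Cumulative share of loci in percent against the log2 ratio of KO to WT FPKM, for 17 class I loci, 7 class II loci and all gene names with a mean of at least 1 FPKM (grey, every 10th value). The class I curve lies wholly to the left of 0, while the class II curve crosses 0 near the grey curve after its outlying members H2-Ob at −2.91 and H2-Oa at −1.49.

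By size, most differences were small. At 2-fold or more, *H2-Ob*, *H2-M2* and *H2-Oa* were lower in KO, 3 of the 34 loci beside 2.1% of all gene names. These 3 were also the loci at 1 FPKM or more in WT only, which passed the minimum through their WT level, so their count is given as a description. Among loci above 5 FPKM in either genotype, the level the study required, only *H2-Ob* was lower by 2-fold, and with a mean of at least 5 FPKM 0 loci were. At 1.5-fold or more, *H2-T24*, *H2-Q6*, *H2-Q8* and *Nlrc5* joined them, giving 7 of 34 beside 5.79% of all gene names. The 7 include the 3 loci that passed the minimum through their WT level, so this count too is a description. At any size 5 members were higher in KO, beside 44.4% of all gene names, with 0 higher by 1.5-fold, beside 4.9%, or by 2-fold, beside 1.66%. With a limit chosen after the values were seen, 18 of 34 loci were at least 25% higher in WT than in KO, 14 of them class I, beside 13.6% of all gene names, and 0 were at least 25% higher in KO than in WT, beside 10.3%. The same 3 loci are among the 18. Of the 25 member loci with a mean of at least 10 FPKM, 22 lay inside the range of −0.51 to 0.42 given above, and *H2-Q6*, *H2-Q8* and *H2-T24* lay below it.

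*Nlrc5*, the transactivator of class I genes, on chromosome 8 (96953834 to 97051172 in mm9), was at 11.7 FPKM in WT and 7.07 FPKM in KO, a log2 ratio of −0.73. *Ciita*, its class II counterpart on chromosome 16, was at 3.60 and 2.88 FPKM (−0.32), and the ratio of *Nlrc5* to *Ciita* was 3.26 in WT and 2.45 in KO. The factors that bind the X and Y boxes were nearly level. *Rfx5* was at 5.88 and 5.69 FPKM (−0.05), *Rfxap* at 6.19 and 6.50 FPKM (0.07), *Creb1* at 9.64 and 9.87 FPKM (0.03) and *Nfya* at 12.8 and 13.0 FPKM (0.03). The interferon regulatory factor genes *Irf8* and *Irf1* were lower, *Irf8* at 7.93 and 4.77 FPKM (−0.73) and *Irf1* at 28.1 and 25.2 FPKM (−0.16). In this list of MHC transcription genes, 13 of 14 reached the minimum, 9 were lower and 4 higher in KO, and the median was −0.09. *Irf8* was the only member of it that was lower by 1.5-fold or more. Both counts are near the shares over all gene names, 55.6% lower at any size and 5.79% at 1.5-fold. The member of the list below the minimum was *Ifng*, the gene of interferon gamma, at 0.0366 FPKM in WT and 0.0632 FPKM in KO.

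A list of other class I pathway genes had a median nearer 0 than the heavy chains, with overlapping ranges. It also holds the class I-like genes *Fcgrt*, *Hfe*, *Mr1* and *Cd1d2*. Of its 14 genes, 13 were lower, beside 55.6% of all gene names, and 0 were lower by 1.5-fold, beside 5.79%. The median was −0.13, and the range ran from −0.37 for *Fcgrt* to 0.01 for *Hfe*. *Tapbpl* in this list stood on a row merged with *Cd27* (−0.33). *Psmb9* and *Psmb8*, the immunoproteasome subunits encoded next to the transporter genes, were at 27.1 and 21.4 FPKM (−0.34) and at 45.4 and 39.9 FPKM (−0.19). Of 6 other class II pathway genes found among the 7 listed, all were lower, beside the same 55.6%, with a median of −0.15, and only *March1* was lower by 1.5-fold. *Ctss*, the protease that trims *Cd74*, was at 74.5 and 61.1 FPKM (−0.29), and *Ifi30*, the thiol reductase of the endosome, merged with *Pik3r2*, was at 73.4 and 68.3 FPKM (−0.10). *March1*, a ubiquitin ligase that removes class II from the surface, was at 4.06 and 2.40 FPKM (−0.76).

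The class I values were also set against their neighbours on the chromosome. The stretch between the first and the last member locus above the minimum on chromosome 17 ran from 34053121 to 37620503 in mm9. Its 83 named loci that are not members had a median of −0.04. Of them 50 were lower and 33 higher in KO, near the 55.6% and 44.4% of all gene names. The class I genes in this stretch fall into several blocks, *H2-K2* and *H2-K1* from 34111604 to 34137278, the D and Q loci from 35399409 to 35611508, and the T and M loci beyond, separated by genes such as *Tnxb* and *Ehmt2* that were at −0.01 for *Ehmt2* and 0.11 for *Tnxb*. Neighbours with large differences included *Ltb* (13.9 FPKM in WT and 2.83 FPKM in KO), a lymphotoxin gene, and the heat shock gene *Hspa1a* (23.4 and 63.4 FPKM), in opposite directions. These 4 neighbours were named after their values were seen. *B2m* on chromosome 2 and *Nlrc5* on chromosome 8, outside the MHC, were lower as well. The spans are those of the table, where overlapping loci such as *H2-D1* and *H2-Q1* carry the same span.

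**Figure D3:**
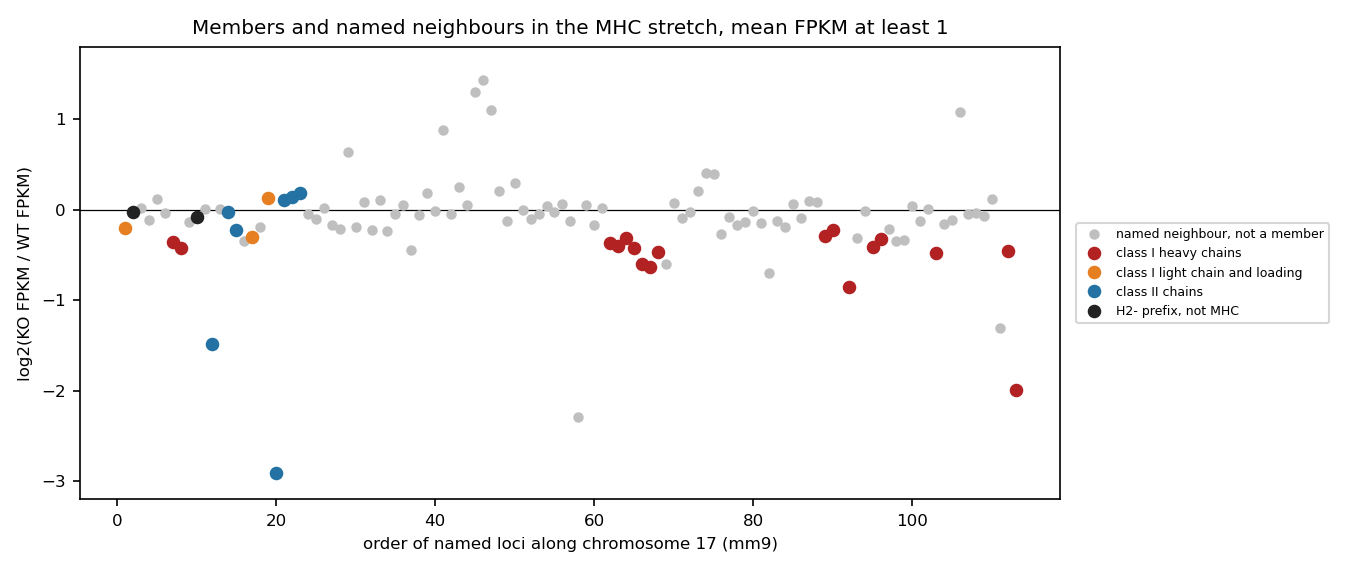
Log2 ratio of KO to WT FPKM for the named loci with a mean of at least 1 FPKM in the MHC stretch of chromosome 17, in their order along the chromosome, with members coloured by role and 83 named neighbours in grey. The class I points all lie below 0 in several separate blocks, while H2-Aa, H2-Ab1 and H2-Eb1 lie just above 0. The neighbours have a median of −0.04 and lie on both sides of 0, from Ltb at −2.29 to Hspa1a at 1.44.

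Markers of cell types that carry these molecules differed between the genotypes too. All 12 B cell markers were lower in KO, beside 55.6% of all gene names, and none was listed at 0. Their median was −3.08 and their summed level 123 FPKM in WT and 55.9 FPKM in KO. Most of this sum in both genotypes was the row of *Cd79a* merged with *Arhgef1*, at 70.3 and 48.3 FPKM, which does not belong to *Cd79a* alone. The next most abundant was *Cd79b* at 12.3 and 2.88 FPKM. All 9 T cell markers found were lower, beside the same 55.6%, with a median of −1.98 and a sum of 54.1 and 12.8 FPKM. The most abundant of them were *Lck* (8.41 and 2.13 FPKM) and *Cd3g* (7.70 and 1.65 FPKM). The 5 general leukocyte markers had a median of −0.81, a sum of 206 and 125 FPKM, and included *Laptm5* (71.9 and 52.7 FPKM) and *Cd52* (48.5 and 24.3 FPKM). The 11 B cell markers on unmerged rows ranged from −3.50 to −2.09. The ratios of *H2-Ob* and *H2-Eb2* lay within this range and that of *H2-Oa*, at −1.49, lay above it, and those of the class I heavy chains were mostly nearer 0 than those of the lymphocyte lists.

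Markers of macrophages, which also make class II molecules, had a median near 0 and spread to both sides of it. Of the 12, 7 were lower and 5 higher in KO, near the 55.6% and 44.4% of all gene names. Their median was −0.03, their range −0.46 to 0.75 and their sum 1238 FPKM in WT and 1185 FPKM in KO. The most abundant were *Lyz2* (381 and 319 FPKM) and *Cd68* on a merged row (255 and 252 FPKM). Of 10 dendritic cell markers, 8 reached the minimum, and 6 were lower and 2 higher, beside the same 55.6% and 44.4%. The list had a median of −0.40, a range of −3.10 to 0.95 and a sum of 36.1 and 27.7 FPKM. *Zbtb46* was at 9.16 and 6.92 FPKM and *Cd209a* at 6.66 and 8.39 FPKM. Of the gland's own cells, 9 of 10 mammary epithelium markers were higher in KO, beside 44.4% of all gene names. Their median was 0.51 and their sum 699 and 953 FPKM, led by *Krt19* (223 and 247 FPKM) and *Krt18* (148 and 216 FPKM). Of 6 adipocyte markers 5 were lower, beside 55.6% of all gene names. Their median was −0.44 and their sum 10331 and 7530 FPKM, led by *Fabp4* (7677 and 5523 FPKM) and *Adipoq* (1207 and 853 FPKM). The part of these cell type differences in the class I and class II values was not tested. In tissue RNA, fewer cells of a type and less RNA per cell cannot be told apart, and with pooled mice of mixed background neither can genotype and H2 haplotype.

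**Figure D4:**
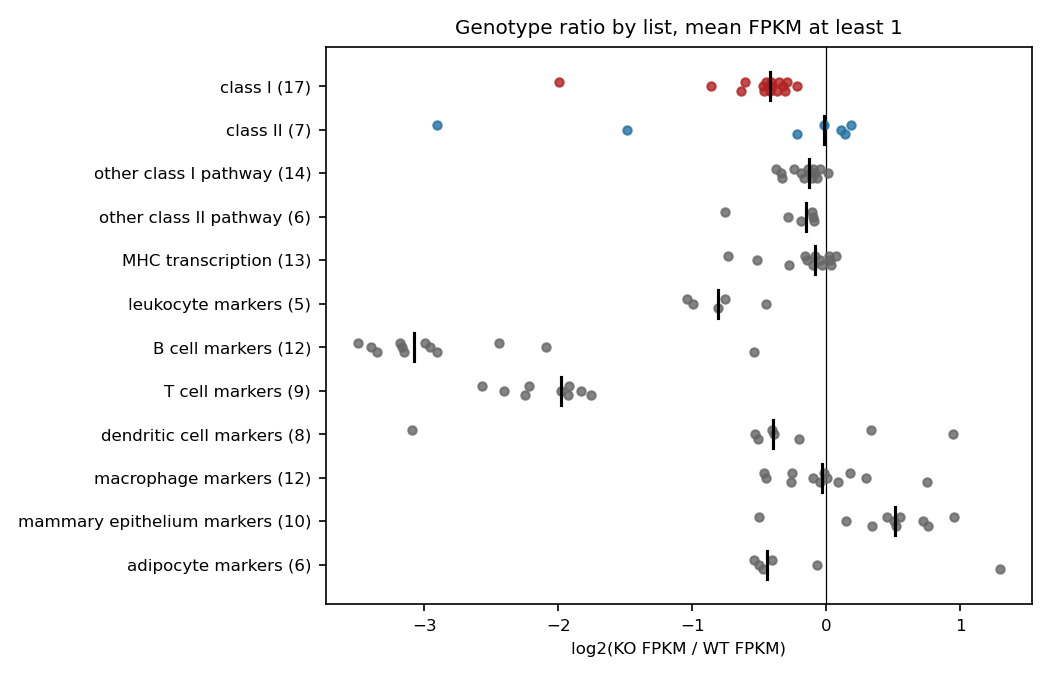
Log2 ratio of KO to WT FPKM for each gene or locus with a mean of at least 1 FPKM in the class I and class II groups and in 10 pathway and cell type lists, with the number of points in brackets and the median as a black line. Class I sits around −0.42, near the medians of the adipocyte list at −0.44 and the dendritic cell list at −0.40. The lymphocyte lists have medians of −3.08 and −1.98 and the macrophage list −0.03, and most class II points sit near 0.

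The remaining members were low class I loci and a pair of genes outside the MHC classes. The 9 class I loci below the minimum were *H2-M5*, merged with *2410137M14Rik* (0.688 FPKM in WT and 0.466 FPKM in KO), *H2-T3* (0.598 and 0.447 FPKM), *H2-M11* (0.265 and 0.270 FPKM), 5 of the H2-M10 genes at or under 0.0567 FPKM in both genotypes, and *H2-M10.1*, listed at 0 in both. *H2-Ke2* and *H2-Ke6*, which carry the H2- prefix but encode a prefoldin subunit and a steroid dehydrogenase, were at 23.6 and 23.2 FPKM (−0.02) and, merged with *Slc39a7*, at 73.2 and 69.0 FPKM (−0.08).

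Direct matches to miR-21 were also looked for. The mature miRNA in RefSeq (mmu-miR-21a-5p, 22 nt) is shown because the KO mice lack it, with its seed, bases 2 to 8, in capitals.
mmu-miR-21a-5p: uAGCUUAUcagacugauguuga
The matching heptamer in a transcript is ATAAGCT. It was found in the longest annotated 3′ UTR of 0 of the 41 members that had one in the GENCODE annotation of mm9, where 6.1% of 19915 genes had it. Only these letters were searched, so other kinds of sites were not examined. The 3′ UTRs of the 41 members ranged from 45 bases for *H2-T9* to 1822 bases for *Ciita*, and length was not accounted for. With 41 members and a share of 6.1%, the count of 0 is a description and no result about the members.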

How the data were processed

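Poly(A) RNA of 2 WT and 2 KO mammary glands was sequenced as single-end reads on an Illumina sequencer, aligned to mm9 with TopHat and summarised with Cufflinks. The authors deposited a Cuffdiff table with FPKM values, 1 per genotype over both mice; the annotation and program versions are not given in the sources used here. Its other columns hold the authors' status, fold change, test statistic, p-value, q-value and call, and were not used. Without values per mouse no test was run and the depth is unknown. Reads of a mixed strain were placed on the reference genome, and reads shared by similar H2 genes can be split among them.

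For each name the row with the highest mean FPKM was taken, and merged rows were counted once. Log2 ratios used no pseudocount. All members were named, with the pathway and marker genes chosen by a fixed rule (the 3 most extreme ratios in each direction, 7 set genes, and the 2 most abundant markers of each list); some of these results are not reported here. Members and lists were chosen with earlier results of these data known. The ratio and count steps were tested on simulated data. Locus starts were taken as counting from 0, since 7567 annotated gene starts matched after adding 1 and 440 as printed. Coding sequences were compared with blastn 2.17.0. Python 3.11.15, numpy 2.4.6, pandas 2.3.3 and matplotlib 3.10.9 were used. Alternatives covered the FPKM minimum, pseudocounts of 1 and 0.1, 3 scalings, summed rows and merged loci.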

Additional observations from a re-analysis of the deposited data

How the results depend on the processing

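No paired analysis was possible because each genotype has only its combined FPKM, and leaving out replicates in turn or adding a replicate block could not be fitted. The class I median stayed between −0.45 and −0.32 under 9 of the 10 alternatives. Scaling both columns to equal sums over all loci moved it to −1.05 and the class II median to −0.65. This scaling gave 34 loci at least 25% higher in WT, 29 lower in KO at 1.5-fold and 15 at 2-fold. It adds −0.63 to every log2 ratio, so the share of all gene names lower in KO rises with it too. With a mean of at least 5 FPKM the class II median was 0.11 and the difference between the classes 0.52, because *H2-Oa* and *H2-Ob* drop out, and 4 loci were lower at 1.5-fold and 0 at 2-fold. With more than 5 FPKM in either genotype 1 locus was lower at 2-fold, and without a minimum 13 were lower at 1.5-fold and 8 at 2-fold. The fewer or more loci follow from each limit. Shares of all gene names were not counted under these alternatives, so the counts describe the settings and are no result about the members. A median was said to move when it changed by 0.1 or more on the log2 scale. The unknown depth limits every low value.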

Other observations

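Loci without an H2 name inside the class I blocks were not part of the comparisons above. Between *H2-Q1* and *H2-T3* on chromosome 17 (35399409 to 36327096 in mm9), 11 loci without any gene name had a mean of at least 1 FPKM, and 9 of them were lower in KO glands, with a median log2 ratio of −0.72. Over the whole MHC stretch there were 21 such loci, and of the 20 above 0 in both genotypes 15 were lower and 5 higher, with a median of −0.24. Of all 2764 loci without a gene name and with this mean, 54.6% were lower in KO, while their summed FPKM was 375273 in WT and 816946 in KO. Among the 11 between *H2-Q1* and *H2-T3*, the most abundant lay next to *H2-Q10*. They were at 35618373 to 35618892 with 44.0 FPKM in WT and 23.6 FPKM in KO, and at 35616697 to 35618288 with 38.8 and 21.6 FPKM. Over the whole MHC stretch the most abundant, at 35133418 to 35137618, had 118 FPKM in WT and 98.7 FPKM in KO, a log2 ratio of −0.25. Among the H2-T genes, the gene models *Gm11127*, *Gm7030* and *Gm8909* stood at 12.5 and 10.1 FPKM, 16.9 and 13.3 FPKM, and 10.5 and 8.37 FPKM, with log2 ratios of −0.31, −0.34 and −0.33. For *Gm7030* and *Gm11127* these are the more abundant of several rows. Their similarity to the named class I genes was not examined here. Within the wider MHC stretch, *Ubd*, a ubiquitin-like gene inducible by interferon, was at 3.40 FPKM in WT and 1.37 FPKM in KO, and *Hspa1b* at 31.9 and 78.7 FPKM. These loci were picked after their values were seen.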
